A study of Homo sapiens with 12 samples.

Results

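The genes described here are 9 tubulin genes and stathmin, the parts of the microtubule and its best known destabilizer, in a mantle cell lymphoma (MCL) cell line whose transcription factor SOX11 had been silenced. They are the alpha-tubulins TUBA1A, TUBA1B, TUBA1C, TUBA4A and TUBA8, the beta-tubulins TUBB, TUBB2A, TUBB4B (formerly TUBB2C) and TUBB6, and STMN1, which makes 10 of the 18417 genes that have a probe set of their own on the array. Each gene was taken from its probe set with the highest mean signal over the 12 arrays. TUBA1A is among the genes that the study selected as lower after SOX11 silencing on these same arrays, so its difference between SOX11 siRNA and control siRNA is given as a description, with no p-value. The other 9 genes were taken as relatives or partners of it.

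The cells were Granta 519, an established MCL line that expresses SOX11, and every array is of this 1 line. In the 4 SOX11 siRNA arrays, 4000000 cells per transfection had received 100 pmol of siRNA against SOX11 by nucleofection, an electroporation that carries nucleic acid into the nucleus, and in the 4 control siRNA arrays the same amount of a negative control siRNA. The 4 untreated arrays carry neither siRNA, and the labels do not say whether those cells were electroporated. RNA was harvested 20 hours after transfection and read on the Affymetrix Human Gene 1.0 ST array, on which many short exon probes make up the probe set of a gene. The study's methods state that the RNA came from individual transfection experiments, which describes the siRNA groups. The p-values measure the spread between such arrays of 1 cell line. The signals are linear PLIER values as deposited, and tests were made on log2(signal + 16) with limma over 33297 probe sets. A gene is called changed at a Benjamini-Hochberg adjusted p under 0.05.

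Microtubules are hollow polymers of alpha- and beta-tubulin dimers, and vertebrate genomes hold several genes for each subunit, called isotypes, whose proteins mix in one polymer. TUBA1A and TUBB2A are best known from developing neurons, TUBB, TUBB4B, TUBA1B and TUBA1C are made in most dividing cells, and mutations of TUBA1A and TUBB2A disturb the migration of cortical neurons in man. Stathmin, the product of STMN1, binds free tubulin dimers and promotes the shrinkage of microtubules, is switched off by phosphorylation in mitosis, and is abundant in proliferating and leukaemic cells. Cells also control tubulin mRNA by feedback, since TTC5, SCAPER and the CCR4-NOT deadenylase degrade tubulin mRNA during its translation when free tubulin is in excess.

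TUBA1B, TUBA1A and TUBA1C are consecutive protein-coding genes on chromosome 12 in RefSeq. The 250 bases before the transcription start of TUBA1A, TUBA1B and TUBB4B are shown because the first gene differed between the siRNA groups, the next is an adjacent gene that did not pass the test, and the last is a beta-tubulin that did not pass it and holds the same 2 kinds of core promoter letters as TUBA1A. Capitals mark matches to 5 short words, read on both strands, so that a capital run may be the reverse complement of the word. ACAAAG and the shorter ACAAT are forms of the motif that SOX proteins bind, CCAAT is the core of the CCAAT box, and TATAAA and the like word TATATA stand for the TATA box. Sequences are from RefSeq, GRCh38.p14, and run 5′ to 3′ on the strand of the gene.
TUBA1A, chr12:49189081-49189330, minus strand: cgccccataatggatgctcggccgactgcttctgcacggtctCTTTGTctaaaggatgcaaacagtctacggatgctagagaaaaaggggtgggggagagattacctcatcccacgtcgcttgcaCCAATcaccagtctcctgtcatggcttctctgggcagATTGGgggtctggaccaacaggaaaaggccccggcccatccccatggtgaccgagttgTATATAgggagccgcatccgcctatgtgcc
TUBA1B, chr12:49131396-49131645, minus strand: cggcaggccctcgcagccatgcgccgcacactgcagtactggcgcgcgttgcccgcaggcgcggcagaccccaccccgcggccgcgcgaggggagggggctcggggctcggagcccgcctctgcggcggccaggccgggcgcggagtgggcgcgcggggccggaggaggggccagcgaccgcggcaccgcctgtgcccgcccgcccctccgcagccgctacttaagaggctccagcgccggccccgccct
TUBB4B, chr9:137241037-137241286, plus strand: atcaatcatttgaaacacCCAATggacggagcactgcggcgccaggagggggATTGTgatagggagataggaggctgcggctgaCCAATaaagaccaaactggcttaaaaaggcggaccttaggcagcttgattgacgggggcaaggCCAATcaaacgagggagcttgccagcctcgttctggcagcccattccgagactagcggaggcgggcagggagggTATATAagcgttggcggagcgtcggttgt
In the TUBA1A window the match to ACAAAG began 208 bases before the start, on the opposite strand, CCAAT was found at 125 and at 88 bases, and TATATA at 30 bases. ACAAT and TATAAA had 0 matches there. The TUBA1B window, with a GC content of 81.2%, had 0 matches to any of the 5 words, whereas the TUBA1A and TUBB4B windows had GC contents of 56.4% and 56.8%, near the median of 58% over all windows. TUBB4B held CCAAT 3 times, TATATA at 29 bases and ACAAT once, with 0 matches to ACAAAG.

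These words are common. Of 35116 such windows of all genes, 13.7% held ACAAAG, 24.6% ACAAT, 32% CCAAT, 10.7% TATAAA and 3.73% TATATA, which can overlap TATAAA by shared letters. The 10 genes have 16 windows in all. ACAAAG was found in the window of TUBA1A and of TUBA8, in 1 of 3 windows of TUBA1C, 1 of 2 of TUBB and 1 of 3 of STMN1, so windows of genes that did not pass the test in the siRNA comparison held it too. TUBA1C, the other gene adjacent to TUBA1A, held CCAAT in each of its 3 windows and TATATA in 1. Windows 1 and 2 of TUBA1C overlap, and their CCAAT is the same site. TATAAA occurred in the window of TUBB2A, 30 bases before its start. A match describes letters, not a bound site, and binding of SOX11 was not analysed here.

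SOX11, the targeted gene, had signals of 227, 229, 188 and 225 on the SOX11 siRNA arrays, 1096, 1191, 1112 and 1026 on the control siRNA arrays and 1028, 978, 978 and 1041 on the untreated arrays. All 4 SOX11 siRNA arrays lay below the other 8. The median signal of an array lay between 69.2 and 91.8, and Pearson's r across probe sets between arrays of a group was 0.989 to 0.995. Of the B cell markers, 6 of 8 could be measured, and their summed signal was 8274 to 10220 with SOX11 siRNA, 8325 to 9916 with control siRNA and 9024 to 10183 in untreated cells. Marker sums of other cells were 365 to 526 over all arrays for 8 T and NK cell genes, 361 to 573 for 8 myeloid genes and 737 to 1026 for 9 fibroblast and epithelial genes, and none of these genes was at 0.

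TUBA1A, an alpha-tubulin, was about 2-fold lower in cells with SOX11 siRNA than in either other group. Its signals were 1281, 1079, 1023 and 1103 with SOX11 siRNA, 2283, 2540, 2221 and 1830 with control siRNA, and 2098, 1922, 2171 and 2037 in untreated cells. The highest SOX11 siRNA array was below the lowest array of both other groups, whereas the control siRNA and untreated arrays overlapped. The means were 1121 ± 112 with SOX11 siRNA, 2218 ± 293 with control siRNA and 2057 ± 105 in untreated cells (SD, n = 4 arrays each). Between SOX11 siRNA and control siRNA the log2 fold change was -0.97 (standard error 0.107, 95% confidence interval -1.20 to -0.74), a difference of 1.96-fold, and the linear mean was lower by 49.4%. SOX11 siRNA against untreated cells shares the SOX11 siRNA arrays with that comparison, and gave -0.87 (standard error 0.107, interval -1.10 to -0.64). Control siRNA against untreated cells gave 0.10 (interval -0.13 to 0.33, adjusted p = 0.861 from limma). In such bulk RNA, fewer cells that express a gene and less of its RNA per cell cannot be told apart.

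**Figure D1:**
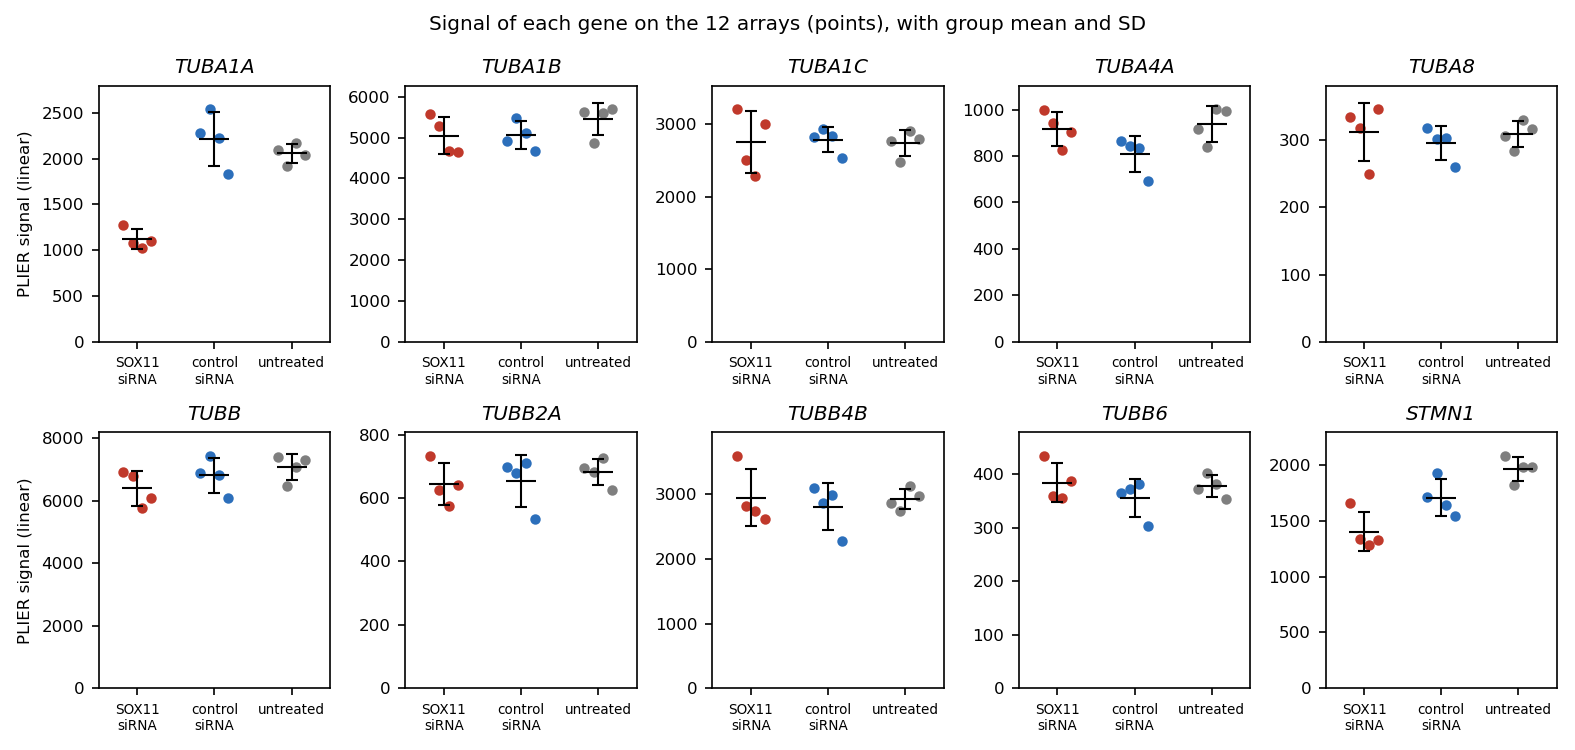
Linear PLIER signal (vertical axis, from 0, with a scale of its own for each gene) of the 10 genes on the SOX11 siRNA, control siRNA and untreated arrays; points are arrays and bars the mean and SD of 4. The 4 SOX11 siRNA arrays of TUBA1A, 1023 to 1281, lie below its other 8, and those of STMN1 overlap control siRNA but lie below untreated cells.

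The neighbour TUBA1B, one of the bulk alpha-tubulins of dividing cells, had nearly equal means in the siRNA groups. Its signals were 5577, 5293, 4669 and 4656 with SOX11 siRNA and 4920, 5490, 5122 and 4683 with control siRNA, and 5635, 4866, 5598 and 5692 in untreated cells. The log2 fold change between SOX11 siRNA and control siRNA was 0.00 to 2 decimals, with an interval of -0.21 to 0.20 (adjusted p = 1 from limma). TUBA1C, the neighbour on the other side, had 3204, 2506, 2285 and 3007 with SOX11 siRNA and 2826, 2934, 2830 and 2533 with control siRNA, with 2766, 2476, 2899 and 2800 in untreated cells. It spread more among SOX11 siRNA arrays (SD 427) than among control siRNA arrays (SD 172), around means of 2751 and 2781, and its log2 fold change was -0.03 (interval -0.26 to 0.21, adjusted p = 1 from limma).

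TUBA4A, whose product carries no C-terminal tyrosine in its encoded form, had 996, 942, 824 and 902 with SOX11 siRNA, 866, 842, 834 and 694 with control siRNA and 915, 839, 1001 and 994 in untreated cells. The groups overlapped, and the log2 fold change was 0.18 between SOX11 siRNA and control siRNA (interval -0.03 to 0.39, adjusted p = 1 from limma) and -0.21 between control siRNA and untreated cells (interval -0.42 to 0.00, adjusted p = 0.587 from limma). TUBA8, the most divergent of these alpha-tubulins, averaged 312 ± 43.0 with SOX11 siRNA, 296 ± 25.2 with control siRNA and 309 ± 19.7 in untreated cells (SD, n = 4 each), and its arrays overlapped in every pair of groups. None of the 4 alpha-tubulins other than TUBA1A was called in any of the 3 comparisons.

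Because the 5 alpha-tubulins were read on the same arrays, TUBA1A can be set against the rest within each array, where a common scale factor nearly cancels. The log2 signal of TUBA1A minus the mean log2 signal of the other 4 was -0.29, -0.39, -0.26 and -0.40 on the SOX11 siRNA arrays, 0.69, 0.82, 0.66 and 0.58 on the control siRNA arrays and 0.52, 0.55, 0.50 and 0.43 on the untreated arrays. Signals of different probe sets have no common scale, so the zero of this measure has no meaning and its differences between arrays do. The group means were -0.34 ± 0.07 with SOX11 siRNA, 0.69 ± 0.10 with control siRNA and 0.50 ± 0.05 in untreated cells (SD, n = 4 each). The difference between SOX11 siRNA and control siRNA was -1.02, a ratio of 0.492, and it lay between -0.94 and -1.15 against the single paralogs. The measure was also higher on every control siRNA array than on every untreated array, by 0.19 in the mean, and against the single paralogs that difference lay between 0.08 (TUBA1C) and 0.31 (TUBA4A). No test was made of these values, since TUBA1A was chosen by the study.

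**Figure D2:**
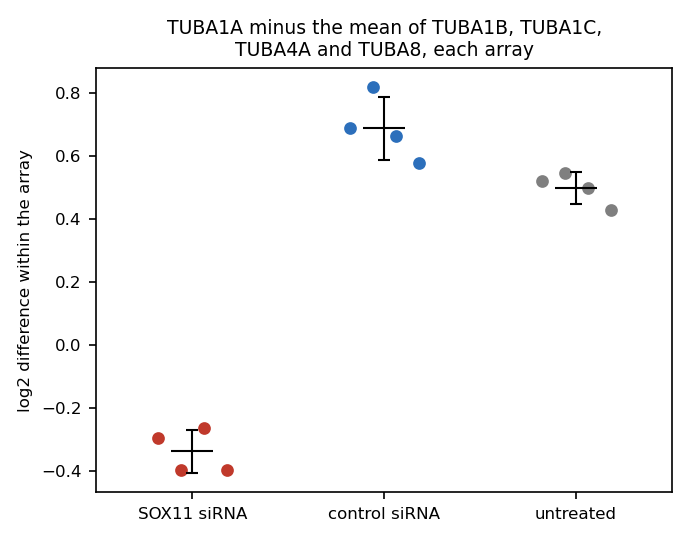
For each array (points), the log2 signal of TUBA1A minus the mean log2 signal of TUBA1B, TUBA1C, TUBA4A and TUBA8 (vertical axis), by group; bars are the mean and SD of 4 arrays. The SOX11 siRNA arrays lie between -0.40 and -0.26, the control siRNA arrays between 0.58 and 0.82 and the untreated arrays between 0.43 and 0.55.

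The beta-tubulins did not pass the test in any comparison. TUBB, the main beta-tubulin of dividing cells, had 6917, 6810, 5766 and 6100 with SOX11 siRNA, 6886, 7446, 6831 and 6107 with control siRNA and 7409, 6483, 7089 and 7322 in untreated cells. The groups overlapped, and the log2 fold change was -0.09 between SOX11 siRNA and control siRNA (interval -0.29 to 0.11, adjusted p = 1 from limma) and -0.15 between SOX11 siRNA and untreated cells (interval -0.35 to 0.06, adjusted p = 0.496 from limma). After quantile normalization, which gives every array the same distribution of signals, the last value was -0.21 with an adjusted p of 0.0244 from limma.

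TUBB4B, another abundant beta-tubulin and one found in cilia, had 3595, 2813, 2746 and 2623 with SOX11 siRNA, 3095, 2862, 2990 and 2279 with control siRNA and 2869, 2747, 3123 and 2971 in untreated cells. Replicate 1 was the highest SOX11 siRNA array, the other 3 lay within the control siRNA range, and the log2 fold change was 0.07 (interval -0.18 to 0.32, adjusted p = 1 from limma). TUBB2A, a beta-tubulin of neurons, averaged 644 ± 65.8 with SOX11 siRNA, 654 ± 82.0 with control siRNA and 682 ± 42.0 in untreated cells (SD, n = 4 each), with a log2 fold change of -0.02 between the siRNA groups. TUBB6, a beta-tubulin known for destabilizing microtubules when overproduced, averaged 384 ± 36.2 with SOX11 siRNA, 356 ± 35.6 with control siRNA and 377 ± 20.5 in untreated cells (SD, n = 4 each), with a log2 fold change of 0.11. Its arrays overlapped between the groups, as did those of TUBB2A.

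For the 8 tubulins other than TUBA1A, log2 fold changes between SOX11 siRNA and control siRNA lay between -0.09 and 0.18, and their 95% intervals between -0.29 and 0.39. The outermost bounds are a change of 1.23-fold down and one of 1.31-fold up. Between control siRNA and untreated cells the 8 intervals ran from -0.42 to 0.26, and between SOX11 siRNA and untreated cells from -0.35 to 0.25.

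STMN1 was lower with SOX11 siRNA than in untreated cells, with control siRNA between them. Its signals were 1660, 1340, 1279 and 1328 with SOX11 siRNA, 1715, 1931, 1639 and 1547 with control siRNA and 2082, 1821, 1978 and 1984 in untreated cells. Each SOX11 siRNA array lay below each untreated array, while SOX11 siRNA replicate 1 was above 2 of the control siRNA arrays. The means were 1402 ± 174 with SOX11 siRNA, 1708 ± 164 with control siRNA and 1966 ± 108 in untreated cells (SD, n = 4 each). SOX11 siRNA against untreated cells gave a log2 fold change of -0.49 (standard error 0.103, interval -0.71 to -0.27, adjusted p = 0.0194 from limma), and the linear mean was lower by 28.7%. This difference is the sum of SOX11 siRNA against control siRNA, -0.29 (standard error 0.103, interval -0.50 to -0.07, adjusted p = 0.856 from limma), and control siRNA against untreated cells, -0.20 (standard error 0.103, interval -0.42 to 0.01, adjusted p = 0.627 from limma), neither of which passed.

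The STMN1 call rests on few arrays. The adjusted p from limma was 0.0569 without SOX11 siRNA replicate 2, 0.0744 without untreated replicate 1 and 0.0589 without untreated replicate 4, with the same direction. After quantile normalization SOX11 siRNA against control siRNA was -0.33 with an adjusted p of 0.0334 from limma. A second STMN1 probe set, far dimmer with a mean signal of 107, gave 0.02 for SOX11 siRNA against control siRNA, -0.29 for control siRNA against untreated cells and -0.27 for SOX11 siRNA against untreated cells (adjusted p = 0.421 from limma).

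**Figure D3:**
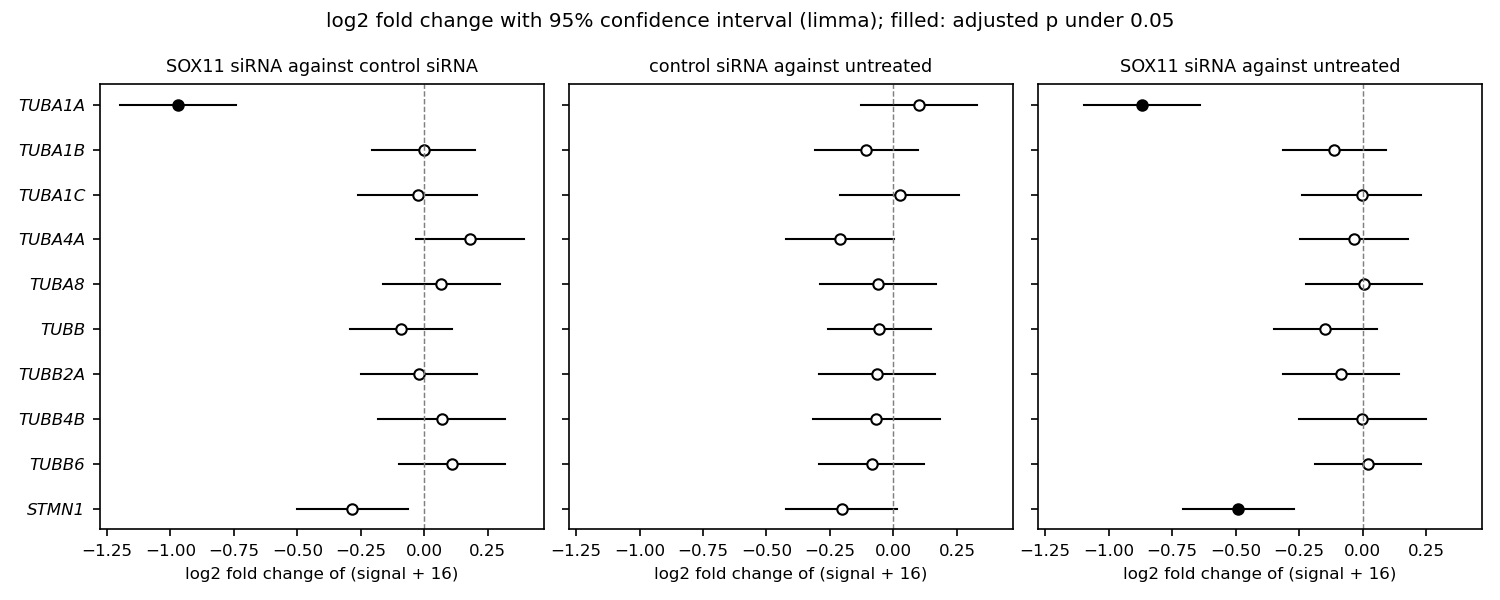
log2 fold change of signal + 16 (horizontal axis) of the 10 genes (rows) in the 3 comparisons, with 95% confidence intervals from limma; filled points passed an adjusted p of 0.05. TUBA1A is filled in both comparisons of SOX11 siRNA, in the first of which the study selected it, STMN1 is filled against untreated cells at -0.49, and the intervals of the other 8 genes include 0.

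Counted over the 10 genes, 1 was called between SOX11 siRNA and control siRNA, TUBA1A, against 0.183% of all probe sets. Nothing is read from this count, because the study chose TUBA1A there. Of the other 9 genes 0 were called, and STMN1 alone of them had an unadjusted p under 0.05, as did 4.26% of all probe sets. Between control siRNA and untreated cells 0 of 10 were called by limma, against 0.387% of all probe sets, and 0 had an unadjusted p under 0.05, against 8.57%. SOX11 siRNA against untreated cells uses the same SOX11 siRNA arrays on which the study chose TUBA1A, so nothing is read from its call there either. Of the other 9 genes STMN1 alone was called. With TUBA1A that makes 2 of 10, where 2.4% of all probe sets were called, 1.6% lower and 0.805% higher. That split of all probe sets moved with the scale, from 532 lower and 268 higher on the deposited scale to 1112 lower and 1266 higher after quantile normalization and 383 lower and 938 higher after median centring. At an unadjusted p under 0.05 there were the same 2 of the 10 genes, against 14.9% of all probe sets. Groups did not overlap for 1, 0 and 2 of the 10 genes in the 3 comparisons, against 1.96%, 7.97% and 7.84% of all probe sets. TUBA1A is part of the first and the last of these counts, and STMN1 of the last.

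Over the 10 genes the log2 fold changes had a median of -0.01 between SOX11 siRNA and control siRNA, -0.07 between control siRNA and untreated cells and -0.06 between SOX11 siRNA and untreated cells, against 0.01, -0.06 and -0.06 over the whole array. Small directions depended on the scale. Centring each array on its median moved the median of all probe sets for SOX11 siRNA against untreated cells to 0.04, and with it the number of the 10 genes above 0 was 6 in each of the 3 comparisons, against 4, 2 and 2 on the deposited scale.

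Within a group, the 10 genes tended to be high or low on an array together. On SOX11 siRNA replicate 1 and control siRNA replicate 2 and untreated replicate 3, 10 of 10 genes were above their own group mean, and on SOX11 siRNA replicate 3 and control siRNA replicate 4, 0 of 10 were. Over the 45 pairs of genes, Pearson's r of the deviations from group means across 12 arrays had a median of 0.73 and a range of 0.33 to 0.94, as a description of values that share arrays. The arrays concerned also differed in overall signal, with mean signals of 460 on SOX11 siRNA replicate 1 and 379 on replicate 3, and of 453 on control siRNA replicate 2 and 373 on replicate 4. After quantile normalization the median r was 0.17 (range -0.45 to 0.83), with 31 of 45 pairs above 0, so the genes moved together less on that scale. Centring on array medians alone left a median r of 0.71.

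**Figure D4:**
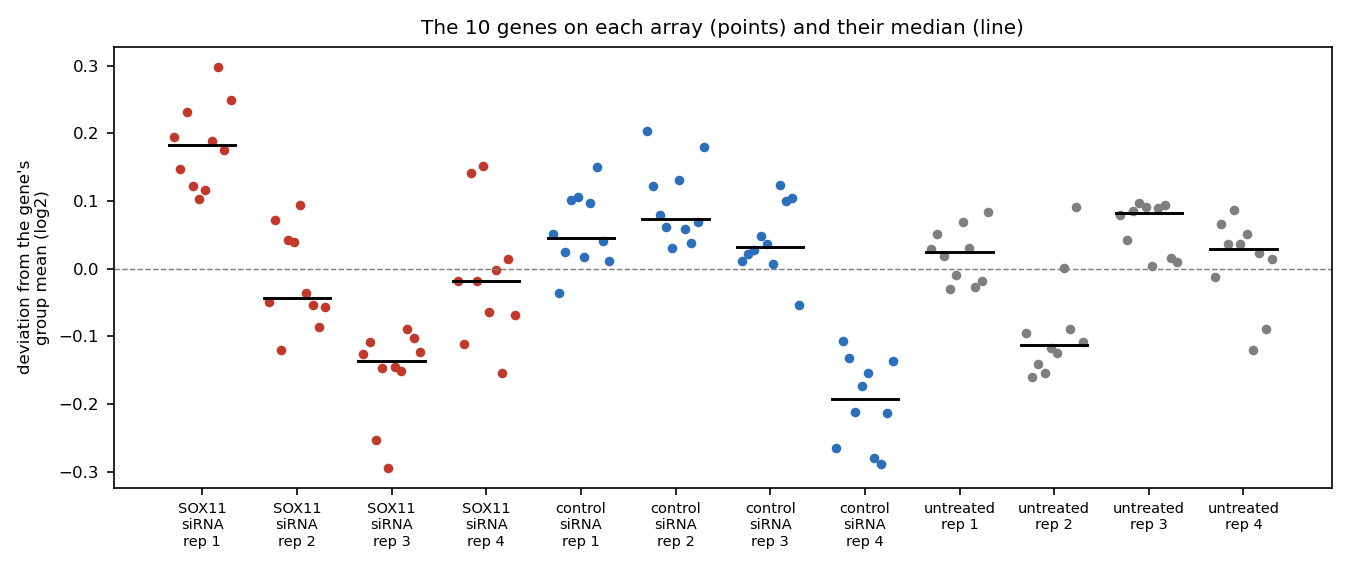
Deviation of each of the 10 genes from its own group mean (vertical axis, log2) on each array; points are genes and lines their median. The points lie above 0 on SOX11 siRNA replicate 1, with a median of 0.18, and below 0 on SOX11 siRNA replicate 3 and control siRNA replicate 4, with medians of -0.14 and -0.19.

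The genes whose pattern was most like that of TUBA1A were picked by correlation. Among 11617 probe sets at or above the median signal that list 1 symbol, those with the highest Pearson's r to TUBA1A over the 12 arrays, apart from that of SOX11, were of CASP6, an executioner caspase (r = 0.990), CD24, a surface glycoprotein of B cells (r = 0.990), HMGB3, a chromatin protein (r = 0.980), ZC4H2, a zinc finger protein (r = 0.973), and TMSB15A, a thymosin that binds actin monomers (r = 0.967). SOX11 itself had r = 0.972, STMN1 0.846, TUBB 0.649 and TUBA1B 0.385, and the other 6 tubulins lay between -0.11 and 0.39. These values rest on 4 low and 8 high arrays and are given with no test. The study had itself selected CASP6, CD24, HMGB3 and TMSB15A, like TUBA1A, for a lower signal with SOX11 siRNA on these arrays, so that their likeness over the 12 arrays is no independent evidence. CASP6, for example, had signals of 322 to 408 with SOX11 siRNA, 520 to 669 with control siRNA and 539 to 620 in untreated cells. CD24 had 524 to 741 with SOX11 siRNA, 1111 to 1535 with control siRNA and 1177 to 1402 in untreated cells. Within groups, the deviations of TUBA1A from its group means correlated at 0.950 with those of CASP6, 0.883 with CD24, 0.776 with HMGB3, 0.820 with ZC4H2, 0.807 with TMSB15A and 0.676 with SOX11. After quantile normalization r was 0.676 for CASP6, 0.791 for CD24, -0.152 for HMGB3, 0.317 for ZC4H2, 0.154 for TMSB15A and -0.610 for SOX11. Among these genes CASP6 and CD24 had the highest values on both scales. The genes other than SOX11 were picked by correlation over the same 12 arrays, deviations within groups included. Their within-group values are therefore a description and no independent evidence.

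The remaining tubulins and stathmins on the array gave few calls. Of 11 other tubulins measured of 13, 0 were called in any of the 3 comparisons, where 0.183%, 0.387% and 2.4% of all probe sets were. The median log2 fold change of these 11 tubulins was 0.02 between SOX11 siRNA and control siRNA. At an unadjusted limma p under 0.05 there were 0 between SOX11 siRNA and control siRNA, 4 between control siRNA and untreated cells and 1 between SOX11 siRNA and untreated cells, against 4.26%, 8.57% and 14.9% of all probe sets. TUBB2B, the near copy of TUBB2A, averaged 147 ± 12.3 with SOX11 siRNA and 170 ± 32.7 with control siRNA (SD, n = 4 each), a log2 fold change of -0.17 (adjusted p = 1 from limma). TUBB1, a beta-tubulin of platelets, had -0.16 and TUBB8, a beta-tubulin of oocytes, had 0.30 (adjusted p = 1 from limma for both). Of the 3 other stathmin genes, STMN3 was lower in SOX11 siRNA cells than in untreated cells, at 72.8 ± 10.8 and 110 ± 10.2 (SD, n = 4 each), a log2 fold change of -0.51 (adjusted p = 0.0142 from limma), with -0.40 for control siRNA against untreated cells (adjusted p = 0.127 from limma) and -0.11 for SOX11 siRNA against control siRNA (adjusted p = 1 from limma). The STMN3 call was lost without SOX11 siRNA replicate 2, untreated replicate 2 or untreated replicate 4, with adjusted p-values of 0.0507 to 0.0573 from limma. With array weights STMN3 also passed for control siRNA against untreated cells (-0.43, adjusted p = 0.0163 from limma). STMN2 and STMN4, which are neuronal, were not called. Between SOX11 siRNA and untreated cells 1.6% of all probe sets were called lower. After quantile normalization TUBB1 was lower with SOX11 siRNA than in untreated cells (-0.24, adjusted p = 0.0452 from limma).

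The machinery that folds tubulin and disposes of its mRNA was described in the same way. Of 20 folding genes measured of 21, 0 were called in any comparison, where 0.183%, 0.387% and 2.4% of all probe sets were. At an unadjusted limma p under 0.05 there were 0 of the 20 as well. The folding genes are the subunits of the chaperonin CCT and prefoldin, the tubulin cofactors and PDCL3. Between SOX11 siRNA and control siRNA 16 of 20 had a log2 fold change above 0 on the deposited scale, where 47.8% of all probe sets lay below 0. Their median was 0.06, with a range of -0.09 to 0.19, against 0.03 for probe sets at or above the median signal. After quantile normalization 8 of 20 were below 0. PFDN6, a prefoldin subunit, had the smallest p of them, with 1128 ± 81.7 for SOX11 siRNA and 989 ± 73.8 for control siRNA (SD, n = 4 each) and a log2 fold change of 0.19 (adjusted p = 1 from limma). Of 12 genes of tubulin mRNA autoregulation, 2 had an unadjusted limma p under 0.05 between SOX11 siRNA and control siRNA, against 4.26% of all probe sets. In that comparison 1 was called lower and 0 higher, against 0.183% of all probe sets. It was CNOT6, a deadenylase subunit of CCR4-NOT that the study also selected on these arrays, so that its direction is no independent evidence: 523 ± 47.3 with SOX11 siRNA and 787 ± 44.7 with control siRNA (SD, n = 4 each), a log2 fold change of -0.58. CNOT8, another deadenylase subunit, had 718 ± 113 with SOX11 siRNA, 939 ± 85.9 with control siRNA and 1019 ± 39.6 in untreated cells (SD, n = 4 each). It was called against untreated cells (-0.51, adjusted p = 0.0238 from limma) and not against control siRNA (-0.39, adjusted p = 0.436 from limma), and after quantile normalization it passed against control siRNA too (-0.43, adjusted p = 0.00907 from limma). The CNOT8 call against untreated cells was lost without SOX11 siRNA replicate 4 or untreated replicate 1, 2 or 3 (adjusted p of 0.0506 to 0.0798 from limma). It was also lost on the log2(value + 1) scale and in a fit of the 2 groups alone (adjusted p = 0.0586 and 0.0572 from limma). By the analysis of variance its adjusted p was 0.0657. The CNOT6 call between the siRNA groups was lost without control siRNA replicate 2 (adjusted p = 0.0574 from limma) and in a fit of those 2 groups alone (adjusted p = 0.0805 from limma). CNOT6L, a close relative of CNOT6, had a log2 fold change of 0.25 between the siRNA groups (adjusted p = 1 from limma).

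The lists of genes that modify or bind the microtubule gave 0 calls in any comparison, where 0.183%, 0.387% and 2.4% of all probe sets were called. The counts were 0 of 16 modifying enzymes, 0 of 17 genes listed as microtubule-associated proteins and 0 of 17 plus-end and severing proteins. The second list also holds ENSA, a phosphatase regulator. Medians between SOX11 siRNA and control siRNA were 0.01, 0.01 and -0.01. At an unadjusted limma p under 0.05 there were 1, 1 and 0 genes of these lists in that comparison, against 4.26% of all probe sets. Between control siRNA and untreated cells there were 0, 0 and 2, against 8.57%. Between SOX11 siRNA and untreated cells there were 4, 1 and 2, against 14.9%. The siRNA groups did not overlap for 1.96% of all probe sets. ATAT1, the alpha-tubulin acetyltransferase, had 52.6 ± 10.7 with SOX11 siRNA, 75.2 ± 3.57 with control siRNA and 65.4 ± 3.58 in untreated cells (SD, n = 4 each), with siRNA groups that did not overlap and a log2 fold change between them of -0.42 (adjusted p = 0.234 from limma). MAP1B, a microtubule-binding protein of axons, likewise did not overlap between the siRNA groups, at 406 ± 72.5 with SOX11 siRNA and 547 ± 47.2 with control siRNA (SD, n = 4 each), and differed by -0.43 on the log2 scale (adjusted p = 0.469 from limma). After quantile normalization ATAT1 passed (-0.40, adjusted p = 0.0316 from limma), and against untreated cells VASH2 and KATNAL1 passed as lower and SIRT2 and SLAIN2 as higher with SOX11 siRNA. VASH2, at -0.34 on the deposited scale (adjusted p = 0.0580 from limma), also passed without dim probe sets and without SOX11 siRNA replicate 1 (0.0343 and 0.0478 from limma). By the analysis of variance its adjusted p was 0.0433. For both ATAT1 and MAP1B control siRNA lay above untreated cells in the mean. The ATAT1 arrays of these 2 groups did not overlap (71.0 to 79.7 and 60.1 to 68.1), as for 7.97% of all probe sets, and those of MAP1B did. The difference between SOX11 siRNA and untreated cells was smaller, -0.26 for ATAT1 and -0.19 for MAP1B, and these groups overlapped for both genes.

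Tubulin and stathmin genes are used heavily by dividing cells, so 21 proliferation genes were read beside them. Between SOX11 siRNA and control siRNA 0 of 21 were called, 1 had an unadjusted limma p under 0.05, against 4.26% of all probe sets, and their median log2 fold change was 0.02. Between control siRNA and untreated cells 21 of 21 were below 0 on the deposited scale, with a median of -0.17 where all probe sets had -0.06 and 67.9% of them lay below 0, and 0 were called, with 6 of 21 at an unadjusted limma p under 0.05 against 8.57% of all probe sets. After quantile normalization MKI67 and MCM4, a replicative helicase subunit, were lower there (-0.42 and -0.25, adjusted p = 0.0455 and 0.0394 from limma), and without dim probe sets MKI67 was (adjusted p = 0.0426 from limma). Between SOX11 siRNA and untreated cells 19 of 21 were below 0, with a median of -0.16, where all probe sets had -0.06 and 64.7% of them lay below 0. Of the 21, 2 were called lower, against 1.6% of all probe sets. They were MKI67, a nuclear protein of cycling cells (-0.44, adjusted p = 0.0458 from limma), and CENPF, a kinetochore protein (-0.52, adjusted p = 0.0257 from limma). At an unadjusted limma p under 0.05 there were 6 of 21, against 14.9% of all probe sets. After quantile normalization 8 were called lower there, after median centring, with array weights or with the replicate block 1, CENPF, and 0 in a fit of the 2 groups alone, on the log2(value + 1) scale or by the analysis of variance. In those last 3 settings the adjusted p of MKI67 was 0.0588, 0.0944 and 0.0951, and that of CENPF 0.0675, 0.0641 and 0.0755. The CENPF call was lost without any 1 of the 4 untreated arrays (adjusted p of 0.0597 to 0.0713 from limma), and the MKI67 call without any 1 of the SOX11 siRNA arrays, of control siRNA replicates 1 and 2 or of untreated replicates 1, 3 and 4 (0.0604 to 0.134). STMN1 was lower in the same comparison as these 2 genes, and their part in its difference was not tested. Genes below 0 in the proliferation list numbered 20 of 21 after quantile normalization and 18 of 21 after median centring between control siRNA and untreated cells, and 19 and 13 of 21 between SOX11 siRNA and untreated cells. In the latter comparison 1 of 6 B cell markers, CD22, was called lower, against 1.6% of all probe sets (-0.48, adjusted p = 0.0118 from limma). So was 1 of 8 T and NK cell markers, CD247 (-0.38, adjusted p = 0.0281 from limma), which was dim, with means of 33.3 and 47.9. Of 9 fibroblast and epithelial genes 1, the keratin KRT18, was called higher, against 0.805% (0.57, adjusted p = 0.0203 from limma). In these 3 lists 4 of 6, 8 of 8 and 6 of 9 genes were below 0, with the keratin KRT8 at -0.13. KRT18 differed by 0.56 between control siRNA and untreated cells (adjusted p = 0.062 from limma), which passed under 10 alternatives (0.00605 to 0.0493), quantile normalization and median centring among them, and by 0.01 between the siRNA groups. CD22 was also lower with control siRNA than in untreated cells (-0.53, adjusted p = 0.0169 from limma). That call was lost without control siRNA replicate 3 or 4 or untreated replicate 1, 3 or 4 (0.0514 to 0.0798), and on the log2(value + 1) scale (0.0558). The calls of CD247 and KRT18 between SOX11 siRNA and untreated cells were lost without SOX11 siRNA replicate 2 or untreated replicate 1, 2 or 3. That of CD247 was also lost without untreated replicate 4 (adjusted p of 0.0504 to 0.104 from limma). Both were lost in a fit of the 2 groups alone (0.0781 and 0.0632 from limma). CD247 was also lost with median centring (0.0934 from limma) and a trend and robust prior (0.0625 from limma). KRT18 was also lost with log2(value + 1) (0.0507 from limma) and by the analysis of variance (0.0745).

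**Figure D5:**
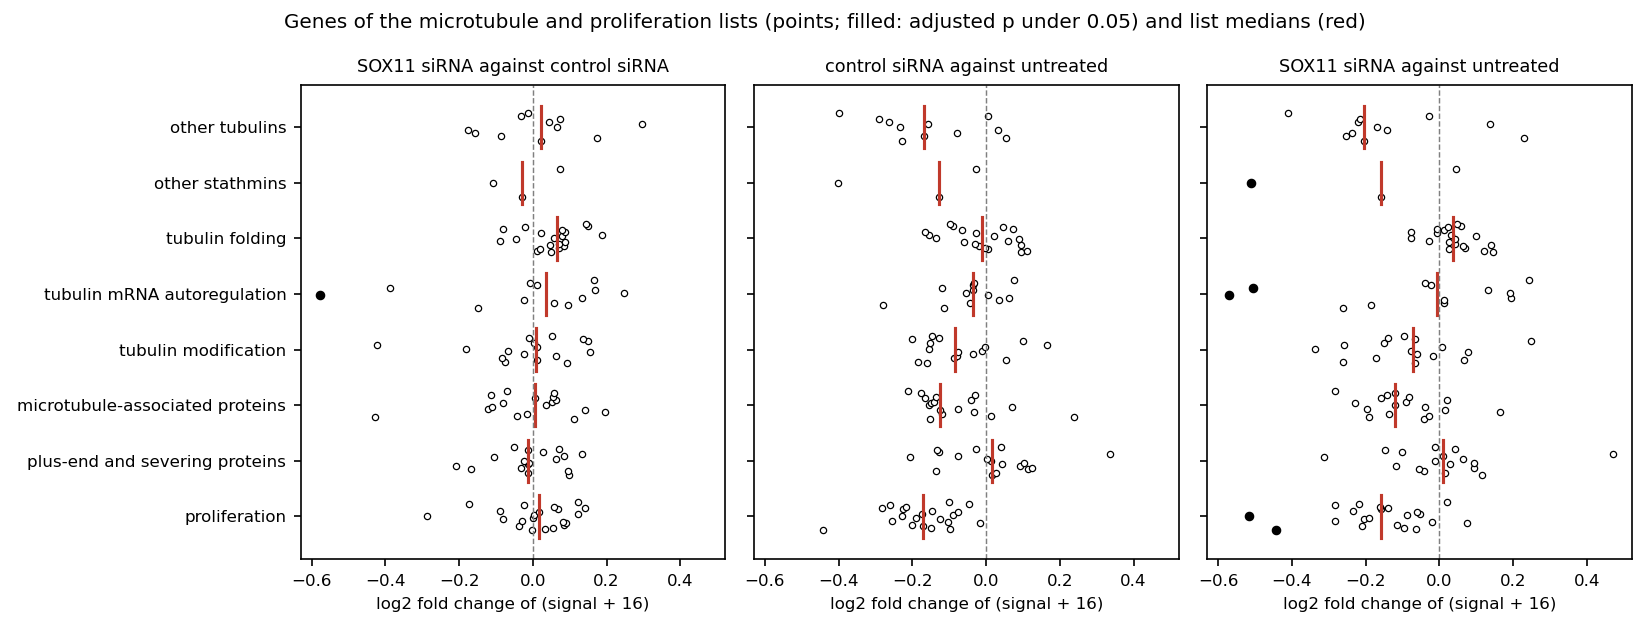
log2 fold change of signal + 16 (horizontal axis) of the genes of 8 lists (rows) in the 3 comparisons; points are genes, filled where the adjusted p from limma was under 0.05, and red lines list medians. The proliferation median lies at -0.17 for control siRNA against untreated cells and at 0.02 for SOX11 siRNA against control siRNA, where CNOT6 at -0.58 is the filled point.

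Tubulin paralogs have long identical stretches, and probes may be shared between them, so that a signal can hold RNA of a close relative. TUBB has 3 probe sets with identical values on all arrays, and 2 of the 3 probe sets of TUBB2A were identical with each other and dim, with a mean signal of 117 against 660 for the one used. The dim pair gave a log2 fold change of 0.05 between SOX11 siRNA and control siRNA. TUBB3 was not analysed here, since it has no probe set that lists it alone.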

How the data were processed

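RNA of Granta 519 cells was measured on 12 Affymetrix Human Gene 1.0 ST arrays, which their labels put in 3 groups of 4 (SOX11 siRNA, control siRNA, untreated). Intensity values were deposited by the authors as linear PLIER signals, made in Affymetrix Expression Console 1.1 with a background correction by probes of like GC content and a global median normalization. Group means, fold changes and p-values of the authors' own comparisons lie beside them and were not used. The study's own statistics used RMA values and an analysis of variance, and the sources used here name no genome build for the array annotation.

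For all 33297 probe sets log2(value + 16) was fitted for 3 groups together with limma 3.58.1 (lmFit, eBayes) in R 4.3.3, with Benjamini-Hochberg adjustment and no filter. The fit was tested on simulated data. Fold changes on this scale are smaller for dim genes. A gene is read from the probe set that lists it alone and has the highest mean, and 19460 probe sets list 1 symbol, 1754 several and 12083 none, the last being unnamed here. Named genes are the 10 members, SOX11, every list gene called in any comparison, up to 3 genes per list with the smallest p between SOX11 siRNA and control siRNA, and the 5 probe sets, that of SOX11 aside, most correlated with TUBA1A. Of 156 list genes 148 were measured. Members and lists were chosen with earlier results of these data known. Alternatives were quantile normalization, median centring, log2(value + 1), a filter on dim probe sets, the 2 groups alone, the analysis of variance, a trend and robust prior, array weights, a replicate block, the mean of a gene's probe sets, and leaving out each array. The 4 arrays per group limit the precision. Promoter windows are from RefSeq, GRCh38.p14, and all 10 genes matched by symbol.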

Additional observations from a re-analysis of the deposited data

Results flagged for a closer look

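In 36 sets of 4 arrays (12 measures in 3 groups), 3 had an array that stood far from the other 3, where chance gives about 1 in 20. SOX11 was lowest on SOX11 siRNA replicate 3, at 187.51 against 225.28 to 228.61 on the other 3 arrays, which is also the array with the lowest median signal. STMN1 was highest on SOX11 siRNA replicate 1, at 1659.55 against 1278.66 to 1339.85, and this array overlaps the control siRNA range. TUBA1B was lowest on untreated replicate 2, at 4866.36 against 5598.15 to 5692.4, an array on which 2 of the 10 genes were above their group mean.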

How the results depend on the processing

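Of the fold changes of the 10 genes (29 results, without that of TUBA1A between the siRNA groups), 641 of 647 values under an alternative stayed on the same side of the threshold. Among these, 0 results with a call reversed. Genes of the lists are not in this count, and many of their calls were lost or gained under an alternative, as given with them above. The 6 exceptions are the 5 of STMN1 and TUBB in the report (STMN1 under quantile normalization and without each of 3 arrays, TUBB under quantile normalization) and TUBB against untreated cells with a replicate block and quantile normalization (-0.21, adjusted p = 0.0346 from limma). TUBA1A between SOX11 siRNA and control siRNA stayed between -1.06 and -0.90, and TUBA1A over the other alpha-tubulins between -1.06 and -0.98. Of the 10 genes, 2 were called between SOX11 siRNA and control siRNA under quantile normalization, and 1 to 2 between SOX11 siRNA and untreated cells without single arrays.

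Counts over all probe sets moved more, and the cause was not tested. Between SOX11 siRNA and control siRNA 61 became 225 with quantile normalization, 38 with log2(value + 1), 26 in the 2 groups alone, 29 in the analysis of variance and 27 (without control siRNA replicate 2) to 70 without single arrays. Between control siRNA and untreated cells 129 (72 lower, 57 higher) became 644 (292 lower, 352 higher) with quantile normalization, 62 with log2(value + 1), 250 without dim probe sets, 217 in the 2 groups alone, 40 in the analysis of variance, 517 with array weights and 70 (without untreated replicate 4) to 232 (without SOX11 siRNA replicate 3) without single arrays. Median centring gave 56 lower and 126 higher there. Between SOX11 siRNA and untreated cells 800 became 2378 with quantile normalization, 1321 with median centring, 463 with log2(value + 1), 445 in the 2 groups alone, 433 in the analysis of variance and 360 (without untreated replicate 1) to 1179 without single arrays.

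Deviations of samples with the same replicate number correlated weakly (r between -0.25 and 0.29). Such values cannot decide whether the numbers mark a pairing. A replicate block gave 51, 121 and 711 calls in the 3 comparisons, with 1, 0 and 2 of the 10 genes, and with quantile normalization 174, 628 and 2419. The block alone changed no call of the 10 genes, and among the other genes named it ended that of MKI67 against untreated cells (adjusted p = 0.0720 from limma). Signal over background is unknown for these probe sets, so that values of dim genes such as ATAT1 and STMN3 are less firm.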
